A study of Mus musculus with 15 samples.

Results

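Genes of the Wnt pathway were followed in primary mouse lung fibroblasts given inflammatory cytokines: the ligands Wnt2, Wnt4, Wnt5a and Wnt9a, the secreted antagonists Sfrp1, Sfrp2, Dkk2 and Dkk3, and the feedback gene Axin2. They were taken by gene symbol from the deposited tables, where all 9 were found among 18078 genes. The study measured RNA in 15 libraries of fibroblasts grown from lungs of wild-type BALB/cJ mice, taken 20 h after stimulation. The groups of 3 libraries each were IL-33 + IL-13 + IL-17A (the triple combination), IL-33 + IL-13, IL-33 + IL-17A, IL-33 alone, and untreated cells, and every cytokine group thus received IL-33. The series asks how these cytokines change lung fibroblasts and the factors they secrete towards macrophages.

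Injured lining cells release IL-33, an IL-1 relative. IL-13 acts in allergic responses, where its receptor activates STAT6, and IL-17A acts in responses to bacteria and fungi that recruit neutrophils. The labels name neither animals, passage, cultures nor doses. P-values therefore rest on the spread among libraries of a group, and that spread may be purely technical.

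Wnt ligands are secreted lipid-modified proteins that bind Frizzled receptors with the co-receptors Lrp5 and Lrp6. Binding stabilises beta-catenin, which enters the nucleus and drives genes through TCF and LEF factors, while some ligands, Wnt5a among them, mainly signal without beta-catenin. Secreted frizzled-related proteins (Sfrp) bind the ligands, and Dickkopf proteins of the Dkk2 type bind the co-receptors. Axin2 is a scaffold of the complex that degrades beta-catenin and is itself switched on by beta-catenin. In the lung, mesenchymal cells such as fibroblasts are a source of Wnt ligands and antagonists for the epithelium.

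The deposited values are in the unit TPM, a read density scaled to a fixed total per library. They proved to be scaled by the span of each gene from start to end, introns included, so a long gene has a low value. Multiplied by span and divided by the step of a single read, all 135 member values (9 genes in 15 libraries) were whole numbers within 0.03, and these are called recovered reads here. The libraries held an estimated 10554595 to 15123269 reads. The cultures carried fibroblast transcripts in every library, with Col1a1 between 2946 and 6501 TPM, but also abundant macrophage transcripts, with Lyz2 between 8628 and 10467 TPM. Epithelial markers were low, at 1.61 to 8.43 TPM for the sum of the 5 in the files. The 13 protein genes of the mitochondrial genome took 3.50% to 3.87% of TPM in 6 libraries, against 4.77% to 6.13% in the other 9. This low mitochondrial set held the whole IL-33 + IL-13 group, IL-33 + IL-17A replicates 2 and 3, and the first replicate of the triple combination. Calls of members that were lost with this set accounted for are given with both values.

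The genes lie on mm10 as follows. Wnt2 (ENSMUSG00000010797) spans chromosome 6, 17988940 to 18030585, on the minus strand. Wnt4 (ENSMUSG00000036856) spans chromosome 4, 137277489 to 137299726, plus strand. Wnt5a (ENSMUSG00000021994) spans chromosome 14, 28504750 to 28527448, plus strand. These 3 ligand genes differ in exon content, which is 5.41%, 18.9% and 34.5% of their spans by GENCODE vM21. Wnt9a (ENSMUSG00000000126) spans chromosome 11, 59306928 to 59333552, plus strand. Sfrp1 (ENSMUSG00000031548) spans chromosome 8, 23411502 to 23449632, plus strand. Sfrp2 (ENSMUSG00000027996) spans chromosome 3, 83766321 to 83774316, plus strand. The remaining genes are longer than Sfrp2, which covers 7996 bases. Dkk2 (ENSMUSG00000028031) spans chromosome 3, 132085292 to 132180304, plus strand. Dkk3 (ENSMUSG00000030772) spans chromosome 7, 112116017 to 112159057, minus strand. Axin2 (ENSMUSG00000000142) spans chromosome 11, 108920349 to 108950783, plus strand.

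Promoters of 2 members are shown, that of Dkk2 because its fall was the largest of the tested members and that of Axin2 because it is the target gene of the pathway. Each is the 250 bases before the start site in RefSeq GRCm38.p6, the assembly behind mm10, and both start sites are the gene starts in the files. Dkk2 is chr3:132085042-132085291 and Axin2 is chr11:108920099-108920348, both on the plus strand, and capitals mark a TCF/LEF core.
Dkk2: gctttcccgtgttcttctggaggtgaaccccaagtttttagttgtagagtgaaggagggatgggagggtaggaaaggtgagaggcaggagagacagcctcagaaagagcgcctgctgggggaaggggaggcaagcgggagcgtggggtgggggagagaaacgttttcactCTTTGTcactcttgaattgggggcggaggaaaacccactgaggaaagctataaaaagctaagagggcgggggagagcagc
Axin2: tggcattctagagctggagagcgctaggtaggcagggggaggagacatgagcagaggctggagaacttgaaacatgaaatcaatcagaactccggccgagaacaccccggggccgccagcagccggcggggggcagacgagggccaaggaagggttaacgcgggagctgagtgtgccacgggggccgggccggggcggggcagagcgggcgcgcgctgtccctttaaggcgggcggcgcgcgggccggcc
For 4 motifs, a search was made on both strands in the 6 members with a RefSeq promoter entry (Wnt2, Wnt4, Wnt9a, Sfrp2, Dkk2 and Axin2). They were the TCF/LEF cores CTTTGA and CTTTGT, the STAT6 palindrome (TTC and GAA with 4 bases between them) and an NF-kB motif (GGG and TTTCC with 2 bases between them). The single match was CTTTGT in Dkk2, with its first base 80 bases before the start (position -80). Of 27025 promoters of the same length, 16.5% hold CTTTGT, 14.1% CTTTGA, 5.86% the STAT6 palindrome and 1.40% the NF-kB motif. A match describes letters only.

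Between genes, levels can be compared per length, here as TPM recomputed over exon length. On that scale Dkk3, a Dickkopf relative that differs from the others in its receptor binding, was the highest member with a mean of 179 TPM and a range of 128 to 235 over the 15 libraries. Sfrp1 followed with 111 (54.4 to 160), so the ranges of these 2 genes overlap. Wnt5a had 38.5 (29.1 to 47.5) and Dkk2 21.9 (10.5 to 47.5), which also overlap. The other members were low: Wnt9a had a mean of 5.49 exon-length TPM, Wnt4 2.79, Sfrp2 1.85, Wnt2 1.49 and Axin2 1.02. All further TPM values are the deposited ones over gene span, which serve to compare groups and not genes.

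Tests used limma on log2(TPM + 1), fitted to 13887 genes with at least 1 TPM in at least 3 libraries, with Benjamini-Hochberg adjustment over all of them, and changes with an adjusted p below 0.05 were called. Log2 changes are on this scale and carry the standard error (SE); for low genes they come out smaller than the change in TPM itself. The tested members were 7: Wnt4, Wnt5a, Wnt9a, Sfrp1, Sfrp2, Dkk2 and Dkk3. Wnt2 and Axin2 had under 1 TPM in every library, and were tested only on recovered reads with limma voom, an analysis added after the data were seen. The median log2 change of all tested genes was -0.12 with IL-33 + IL-13 and -0.10 with the triple combination against untreated cells. Over the 8 comparisons of 2 groups, 28.4% to 45.7% of called genes were higher, and 50.2% to 55.2% after median-ratio scaling, which brings the median gene to about 0.

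Of the ligands, Wnt5a was lower wherever IL-13 was present. Wnt5a, the ligand best known for signalling without beta-catenin, had 30.2, 33.8 and 33.7 TPM in the triple combination, 31.2, 30.1 and 29.9 with IL-33 + IL-13, 47.7, 43.6 and 43.7 with IL-33 + IL-17A, 44.7, 44.8 and 50.04 with IL-33, and 46.1, 43.0 and 48.6 in untreated cells. The 6 IL-13 libraries lay below all 9 others, and the 3 groups without IL-13 overlapped. Added to IL-33, IL-13 lowered Wnt5a by a log2 change of -0.60 ± 0.06 (limma adjusted p = 3.4e-05). When IL-13 was added to IL-33 + IL-17A, the change was -0.46 ± 0.06 (adjusted p = 3.9e-04). Against untreated cells the change of Wnt5a was -0.48 in the triple combination (limma adjusted p = 5.3e-05) and -0.58 with IL-33 + IL-13 (adjusted p = 1.4e-05), or -0.38 and -0.46 relative to the median gene. IL-33 alone gave 0.02 ± 0.06 (limma adjusted p = 0.90), and IL-17A added to IL-33 gave -0.04 ± 0.06 (adjusted p = 0.69). In a culture with several cell types, fewer cells of a type and less RNA per cell cannot be told apart. The macrophage markers (10 of 11 listed are in the files) summed to 12974 to 13355 TPM with IL-33 + IL-13 and 14801 to 15081 TPM in untreated cells. Between these groups 6 of the 10 were called lower, Lyz2 among them, and 3 higher (Mrc1, Itgam and Cd14). The 11 fibroblast markers summed to 10526 to 10865 TPM with IL-33 + IL-13 and 13789 to 15149 TPM in untreated cells. Of these 11, 8 were called lower and 1 (Dcn) higher, where 35.1% and 14.5% of all tested genes were. The part of these markers in the result was not tested.

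**Figure D1:**
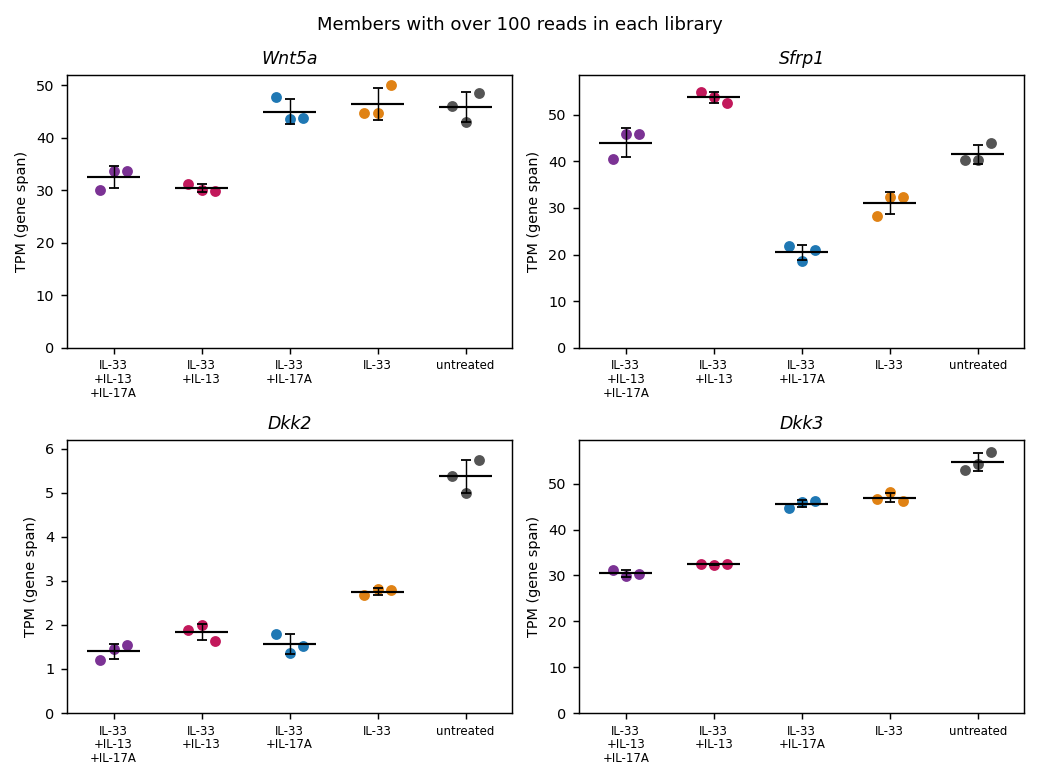
Gene-span TPM (y axis, from 0) of the 4 members with the most reads in each library (points) by group (x axis), with the mean (long bar) and SD (whisker) of 3 libraries. The 6 libraries with IL-13 are lowest for Wnt5a and Dkk3, Sfrp1 is highest with IL-33 + IL-13 (mean 53.7) and lowest with IL-33 + IL-17A (20.4), and every cytokine library of Dkk2 is below the untreated ones.

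Wnt4 and Wnt9a, ligands expressed at a few TPM, were lower with cytokines. Wnt4, a ligand that can act with or without beta-catenin, averaged 1.51 ± 0.21 TPM in the triple combination, 1.78 ± 0.11 with IL-33 + IL-13, 1.21 ± 0.19 with IL-33 + IL-17A, 1.25 ± 0.23 with IL-33 and 2.21 ± 0.36 in untreated cells (SD, n = 3 each), from 22 to 55 reads a library. It fell with IL-33 (log2 change -0.51 ± 0.11, limma adjusted p = 0.0086) and with IL-33 + IL-17A (-0.54 ± 0.11, adjusted p = 0.0029), and its ranges there were apart from the untreated range. The call with IL-33 was lost when only the compared groups were fitted (-0.51, limma adjusted p = 0.060). The triple combination gave -0.35 ± 0.11 (limma adjusted p = 0.026). That last call was lost with median-ratio scaling (-0.27, adjusted p = 0.066) and on recovered reads (-0.41, adjusted p = 0.074). It was also lost without replicate 1 of the triple combination (-0.28, limma adjusted p = 0.099) and without replicate 3 of the untreated cells (-0.26, adjusted p = 0.11). Fitting only the compared groups lost it as well (-0.35, limma adjusted p = 0.066). Among the libraries outside the low mitochondrial set it was -0.28 (limma adjusted p = 0.16). With IL-33 + IL-13 the change from untreated cells was -0.20 ± 0.11 (limma adjusted p = 0.16). The effect of IL-13 on top of IL-33 was 0.31 ± 0.11 (limma adjusted p = 0.054), and it passed the test with median-ratio scaling (0.37, adjusted p = 0.023) and on recovered reads (0.60, adjusted p = 0.023).

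Wnt9a averaged 1.80 ± 0.14 TPM in the triple combination, 1.75 ± 0.29 with IL-33 + IL-13, 1.92 ± 0.38 with IL-33 + IL-17A, 2.04 ± 0.37 with IL-33 and 2.83 ± 0.13 in untreated cells (SD, n = 3 each). The 3 untreated libraries were above all 12 cytokine libraries, and the 4 cytokine groups overlapped. It fell with IL-33 + IL-13 (log2 change -0.48 ± 0.12, limma adjusted p = 0.0052) and with the triple combination (-0.45 ± 0.12, adjusted p = 0.0085). With IL-33 + IL-17A it also fell (-0.40 ± 0.12, limma adjusted p = 0.020), a call lost with median-ratio scaling (-0.32, adjusted p = 0.069). Nor was it called there without replicate 1 of IL-33 + IL-17A (-0.29, limma adjusted p = 0.063) or replicate 1 of the untreated cells (-0.37, adjusted p = 0.060). Fitting only the compared groups lost that call too (-0.40, limma adjusted p = 0.0501). IL-33 alone gave -0.34 ± 0.12 (limma adjusted p = 0.083). Neither adding IL-13 nor adding IL-17A to an IL-33 group gave a call for Wnt9a, with log2 changes between -0.14 and 0.03.

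Wnt2, a ligand of lung mesenchyme needed for early lung development in mice, had few reads in all groups and the most where IL-13 was present. Its recovered reads were 17, 20 and 16 in the triple combination, 27, 18 and 19 with IL-33 + IL-13, 2, 7 and 11 with IL-33 + IL-17A, 3, 9 and 4 with IL-33, and 3, 1 and 8 in untreated cells. All 6 libraries with IL-13 were above the other 9, in which a single library (replicate 3 of IL-33 + IL-17A) reached 10 reads. Wnt2 thus passed the minimum of 10 reads in 3 libraries through the IL-13 groups, in which it is high, so the calls below are not independent of that filter. With IL-33 + IL-13, 64 reads against 12 in untreated cells made a ratio of depth-scaled reads of 4.79 (95% exact interval 2.56 to 9.76, counting error only). On recovered reads the log2 change was 2.42 ± 0.50 (limma voom adjusted p = 4.2e-04), and it ranged from 1.89 to 3.05 when a library was left out. The triple combination, with 53 reads, gave a ratio to untreated cells of 4.29 (2.26 to 8.82) and a log2 change of 2.29 ± 0.51 (limma voom adjusted p = 9.2e-04), with a range of 1.75 to 2.91 when a library was left out. The lowest and highest values of both came without untreated replicate 2 (1.75 and 1.89) and without untreated replicate 3 (2.91 and 3.05). On top of IL-33, IL-13 gave 1.86 ± 0.45 (adjusted p = 0.0032 with limma voom), which was not called with a term for the low mitochondrial set (1.53, adjusted p = 0.074). On top of IL-33 + IL-17A it gave 1.70 ± 0.45 (limma voom adjusted p = 0.0089) and kept its call with that term (1.67, adjusted p = 0.0073). Without replicate 1 of IL-33 + IL-17A it was 1.18 (adjusted p = 0.040). Without IL-13, the ratio to untreated cells was 1.45 (0.67 to 3.24) for IL-33 + IL-17A and 1.34 (0.60 to 3.11) for IL-33, neither called.

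**Figure D2:**
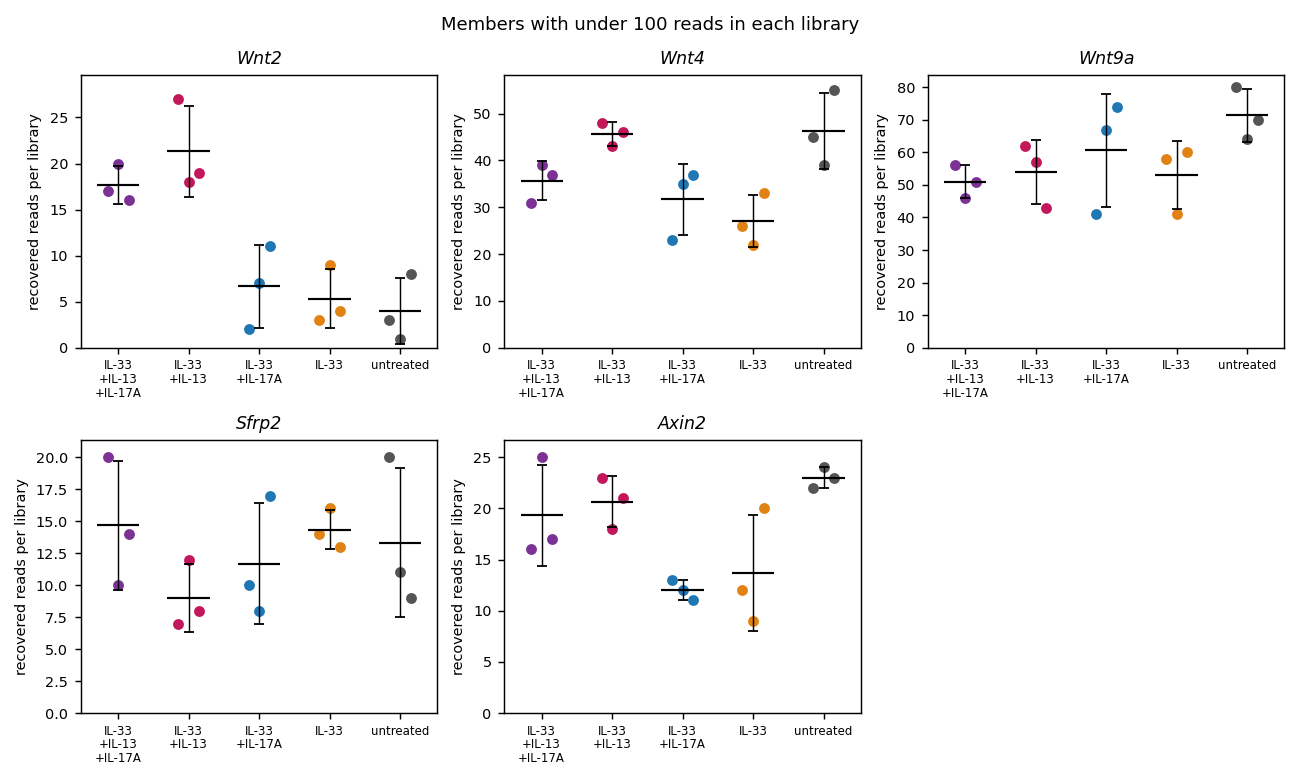
Recovered reads (y axis, from 0, not scaled to depth) of the 5 members with few reads in each library (points) by group (x axis), with the mean (long bar) and SD (whisker) of 3 libraries. Wnt2 is at 16 to 27 reads in the 6 libraries with IL-13 and at 1 to 11 in the others, and Axin2 is at 11 to 13 with IL-33 + IL-17A and at 22 to 24 in untreated cells.

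Among the antagonists, Sfrp1 moved in opposite directions with the added cytokines. Sfrp1, a secreted protein that binds Wnt ligands, had 40.5, 45.8 and 45.8 TPM in the triple combination, 55.0, 53.7 and 52.5 with IL-33 + IL-13, 21.7, 18.6 and 21.01 with IL-33 + IL-17A, 28.3, 32.4 and 32.4 with IL-33, and 40.3, 40.4 and 43.9 in untreated cells. The groups ran from IL-33 + IL-13 at the top through the triple combination and untreated cells, which overlap, to IL-33 and then IL-33 + IL-17A, each apart from its neighbour. IL-33 lowered Sfrp1 (log2 change -0.41 ± 0.07, limma adjusted p = 0.0018). IL-17A added to IL-33 lowered it further by -0.58 ± 0.07 (adjusted p = 2.2e-04, limma), to a mean of 20.4 TPM with both, against 31.1 with IL-33 and 41.5 in untreated cells. Adding IL-13 to IL-33 raised it by 0.77 ± 0.07 (limma adjusted p = 1.1e-05), to a mean of 53.7 TPM. Added to IL-33 + IL-17A, IL-13 raised it by 1.07 ± 0.07 (limma adjusted p = 8.9e-07).

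Against untreated cells Sfrp1 was thus higher with IL-33 + IL-13 (0.36 ± 0.07, limma adjusted p = 0.0013; 0.48 relative to the median gene) and lower with IL-33 + IL-17A (-0.99 ± 0.07, adjusted p = 3.6e-07). The triple combination gave 0.08 ± 0.07 (limma adjusted p = 0.40) on TPM, but a rise of 0.20 with median-ratio scaling (adjusted p = 0.010) and of 0.21 on recovered reads (adjusted p = 0.0045). Adding IL-17A to IL-33 + IL-13 gave a fall of -0.28 ± 0.07 (limma adjusted p = 0.034). This call was lost when any 1 of the 6 libraries compared was left out (-0.23 to -0.31, adjusted p between 0.062 and 0.11), and held on recovered reads (-0.30, adjusted p = 6.8e-04). The difference between the 2 effects of IL-17A, or of IL-13, tested as an interaction, was 0.30 ± 0.10 (limma adjusted p = 0.11). It was called without replicate 1 of IL-33 + IL-17A (0.34, adjusted p = 0.039) and without replicate 1 of the triple combination (0.36, adjusted p = 0.036).

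Sfrp2, a relative of Sfrp1, rested on 7 to 20 reads a library. It averaged 1.72 ± 0.55 TPM in the triple combination, 0.973 ± 0.27 with IL-33 + IL-13, 1.22 ± 0.33 with IL-33 + IL-17A, 1.85 ± 0.23 with IL-33 and 1.75 ± 0.66 in untreated cells (SD, n = 3 each), and every pair of neighbours in the order of levels overlapped. The range with IL-33 alone (1.64 to 2.10 TPM) was apart from those with IL-33 + IL-17A (0.887 to 1.55) and IL-33 + IL-13 (0.753 to 1.28). No comparison of Sfrp2 was called. With IL-13 over IL-33 alone the change was -0.54 ± 0.19 (limma adjusted p = 0.051), which passed the test with a pseudocount of 0.25 (-0.80, adjusted p = 0.045). On reads, 27 with IL-33 + IL-13 against 43 with IL-33 made a ratio of 0.56 (95% exact interval 0.33 to 0.93, counting error only). Differences of this size are at the limit of this depth.

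Dkk2 fell most of all members. Dkk2, a Dickkopf protein that binds the Wnt co-receptors, had 1.21, 1.44 and 1.53 TPM in the triple combination, 1.89, 1.99 and 1.64 with IL-33 + IL-13, 1.80, 1.35 and 1.52 with IL-33 + IL-17A, 2.67, 2.81 and 2.79 with IL-33, and 5.38, 4.99 and 5.74 in untreated cells, from 126 to 515 reads a library. The untreated libraries were above all others, those with IL-33 alone came next, and the 3 combinations overlapped in part. As a share of the untreated mean, Dkk2 was at 26.0% in the triple combination, 34.3% with IL-33 + IL-13, 29.0% with IL-33 + IL-17A and 51.3% with IL-33. The log2 changes against untreated cells were -1.41, -1.17, -1.32 and -0.76 in the same order, each ± 0.08, with limma adjusted p between 3.9e-08 and 5.0e-05. Adding IL-17A to IL-33 lowered Dkk2 by -0.56 ± 0.08 (limma adjusted p = 0.0011). Among the libraries outside the low mitochondrial set, which leaves 1 of IL-33 + IL-17A, the change was -0.42 (adjusted p = 0.092). Adding IL-13 to IL-33 gave -0.40 ± 0.08 (limma adjusted p = 0.0040), but with a term for the low mitochondrial set, which holds every IL-33 + IL-13 library, the change was -0.22 (adjusted p = 0.21). A change of -0.25 ± 0.08 came with IL-17A added to IL-33 + IL-13 (limma adjusted p = 0.10), and it was called on recovered reads (-0.41, adjusted p = 0.018). The change with IL-13 added to IL-33 + IL-17A was -0.09 ± 0.08 (limma adjusted p = 0.53).

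Dkk3 showed a smaller and very even fall. It had 31.2, 29.9 and 30.3 TPM in the triple combination, 32.6, 32.3 and 32.4 with IL-33 + IL-13, 44.8, 45.9 and 46.3 with IL-33 + IL-17A, 46.6, 48.2 and 46.3 with IL-33, and 53.0, 54.3 and 56.9 in untreated cells. The untreated libraries were highest, the groups with IL-33 and IL-33 + IL-17A overlapped, and the 6 libraries with IL-13 were lowest. IL-13 lowered Dkk3 by -0.52 ± 0.03 when added to IL-33 (limma adjusted p = 5.9e-07) and by -0.57 ± 0.03 when added to IL-33 + IL-17A (adjusted p = 3.9e-07). IL-33 alone gave -0.22 ± 0.03 (limma adjusted p = 9.4e-04), or -0.16 relative to the median gene. The triple combination brought it to 55.6% of the untreated mean (-0.82 ± 0.03, limma adjusted p = 1.2e-09), IL-33 + IL-13 to 59.3% (-0.74 ± 0.03, adjusted p = 5.6e-09) and IL-33 + IL-17A to 83.4% (-0.26 ± 0.03, adjusted p = 9.9e-05). Adding IL-17A gave -0.04 to IL-33 and -0.09 to IL-33 + IL-13, neither called.

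Axin2, the feedback target of beta-catenin, had its lowest mean with IL-33 + IL-17A, in a range that overlapped that of IL-33. Its recovered reads were 16, 25 and 17 in the triple combination, 23, 18 and 21 with IL-33 + IL-13, 13, 12 and 11 with IL-33 + IL-17A, 12, 9 and 20 with IL-33, and 22, 24 and 23 in untreated cells. On gene-span TPM the untreated range was apart from those of IL-33 + IL-13, IL-33 + IL-17A and IL-33, and overlapped that of the triple combination. With IL-33 + IL-17A, 36 reads against 69 in untreated cells made a ratio of depth-scaled reads of 0.45 (95% exact interval 0.29 to 0.69, counting error only). The log2 change on recovered reads was -1.13 ± 0.28 (limma voom adjusted p = 0.0033), between -0.94 and -1.25 when a library was left out. With a term for the low mitochondrial set it was -0.85 (adjusted p = 0.072). IL-33 alone gave -0.78 ± 0.28 (limma voom adjusted p = 0.062), which passed the test without replicate 3 of IL-33 (-1.07, adjusted p = 0.026) and with the mitochondrial term (adjusted p = 0.046). IL-17A added to IL-33 was not called for Axin2 (-0.35 ± 0.31, limma voom adjusted p = 0.49), and the change was -0.07 with the mitochondrial term (adjusted p = 0.96). The groups with IL-13 were closer to untreated cells: IL-33 + IL-13 gave -0.31 ± 0.25 (limma voom adjusted p = 0.32) and the triple combination -0.31 ± 0.26 (adjusted p = 0.35), with ratios of 0.81 (0.56 to 1.15) and 0.82 (0.57 to 1.17). With the mitochondrial term the IL-33 + IL-13 change was 0.08 (adjusted p = 0.90). Over IL-33 + IL-17A, the triple combination gave 0.82 ± 0.29 (limma voom adjusted p = 0.054). This was called without replicate 1 of the triple combination (0.94, adjusted p = 0.034) and without replicate 1 of IL-33 + IL-17A (0.94, adjusted p = 0.045).

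**Figure D3:**
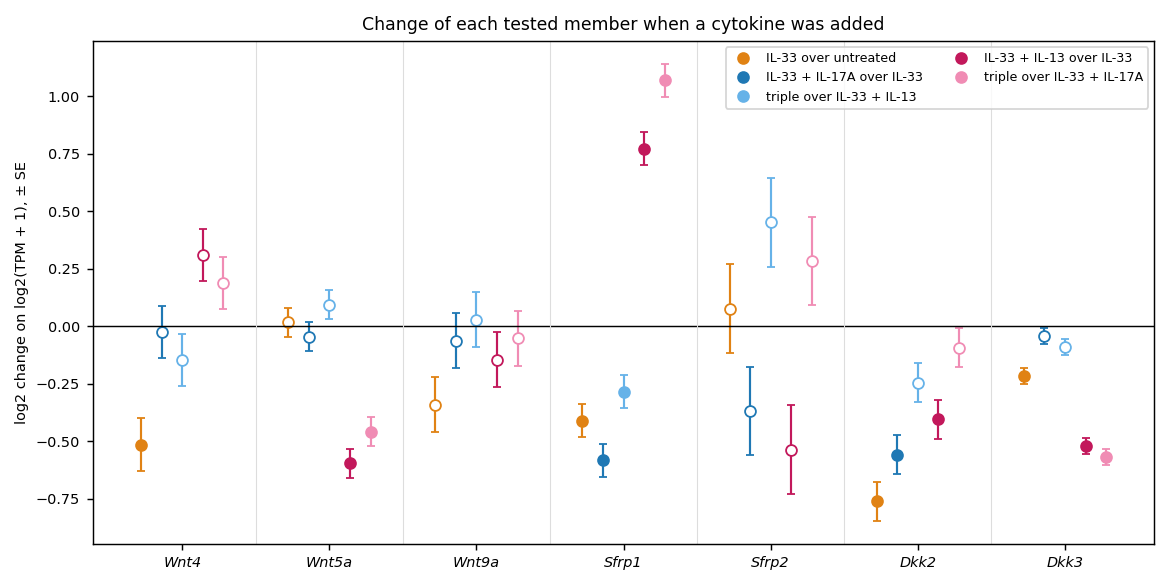
Log2 change on log2(TPM + 1) with its SE (y axis) of the 7 tested members (x axis) for IL-33 over untreated and for each cytokine added to an IL-33 group; filled points passed limma's adjusted p of 0.05 and open points did not. Sfrp1 is below 0 with added IL-17A and above 0 with added IL-13 (0.77 and 1.07), while Wnt5a and Dkk3 are below 0 with added IL-13 (-0.46 to -0.60).

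Counted over the 7 tested members, called changes from untreated cells were mostly falls. In the triple combination 5 of 7 were lower (30.1% of all tested genes were) and 0 higher (12.6% of all genes). With IL-33 + IL-13, 4 were lower and 1 higher, where 35.1% and 14.5% of all tested genes were. With IL-33 + IL-17A, 5 were lower and 0 higher, where 27% and 10.7% of all tested genes were. With IL-33 alone, 4 were lower and 0 higher, where 8.28% and 5.92% were. The limma counts of 0 higher members stayed at 0 at an unadjusted p under 0.05. The median log2 change of the tested members was -0.45, -0.48, -0.40 and -0.34 in the same order, against medians of -0.10, -0.12, -0.09 and -0.05 for all tested genes. These comparisons share the untreated libraries.

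When IL-17A was added to IL-33, 2 members fell, Sfrp1 and Dkk2 (6.22% of all tested genes were lower), and 0 rose (3.54% were higher), with limma at an unadjusted p under 0.05 and with voom also 0. Added to IL-33 + IL-13, IL-17A lowered Sfrp1 alone (4.05% of all tested genes) and raised 0 members (3.4%), with 1 at an unadjusted p under 0.05 and 0 with voom. When IL-13 was added to IL-33, Wnt5a, Dkk2 and Dkk3 fell (22.4% of all tested genes were lower) and Sfrp1 rose (10%). Added to IL-33 + IL-17A, IL-13 lowered Wnt5a and Dkk3 (9.14% of all tested genes) and raised Sfrp1 (6.7%).

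On recovered reads all 9 members were tested. Wnt2 reached the read minimum through the IL-13 groups, so it is left out of the counts that follow, which are of the other 8. Against untreated cells, voom called 4 lower and 1 higher in the triple combination (22.2% and 21.4% of all 13728 genes), the higher one being Sfrp1. With IL-33 + IL-13, 4 were lower and 1 higher, again Sfrp1 (26.5% and 25.2% of all genes). With IL-33 + IL-17A, 6 were lower, Axin2 among them, and 0 higher (20.8% and 19%), and with IL-33 4 were lower and 0 higher (8.03% and 8.53%). IL-17A lowered 2 members, Sfrp1 and Dkk2, both when added to IL-33 (7.32% lower and 6.83% higher over all genes) and to IL-33 + IL-13 (6.09% lower and 6.59% higher). IL-13 raised Sfrp1 and Wnt4 and lowered Wnt5a, Dkk2 and Dkk3 when added to IL-33 (18.1% higher and 18.7% lower over all genes). When it was added to IL-33 + IL-17A, voom called Sfrp1 higher and Wnt5a and Dkk3 lower (10.6% higher and 10.1% lower over all genes).

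The interaction between the effects of both added cytokines was called for 0 of 7 members with limma (0.338% of all tested genes, 0.158% with a positive and 0.18% with a negative sign) and for 0 of 9 on recovered reads with voom (10.4%, of which 4.74% positive and 5.67% negative). At an unadjusted p under 0.05 it had 3 members in each, Sfrp1, Sfrp2 and Dkk2, each with a positive sign. For Sfrp2 it was 0.82 ± 0.27 (limma adjusted p = 0.11).

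The remaining Wnt pathway was read from lists of 120 other genes, of which 102 are in the files and 79 were tested. Against untreated cells 46 were lower and 10 higher in the triple combination, 42 and 10 with IL-33 + IL-13, 35 and 7 with IL-33 + IL-17A, and 12 and 5 with IL-33. The shares of all tested genes called lower were 30.1%, 35.1%, 27% and 8.28% in that order, and those called higher 12.6%, 14.5%, 10.7% and 5.92%. The median log2 change of the 79 genes was -0.27, -0.20, -0.14 and -0.05 in that order. After median-ratio scaling the counts were 35 lower and 15 higher, 33 and 15, 25 and 10, and 11 and 6. With that scaling 2654, 3120, 2281 and 878 of all 13887 tested genes were lower, and 2737, 3255, 2365 and 1083 higher, in the same order.

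Of the list of Wnt secretion and R-spondin agonists, 4 genes were tested: Wls, Porcn, Rspo1 and Rspo3. Rspo1 had 1.35 to 2.06 TPM in untreated cells and at most 1.01 TPM in a cytokine library. It thus passed the filter through the untreated group, in which it is high, so its falls are not independent of that filter. Wls, Porcn and Rspo3 were lower in the triple combination, with IL-33 + IL-13 and with IL-33 + IL-17A, as was Rspo1, where 30.1%, 35.1% and 27% of all tested genes were. All 4 were lower with median-ratio scaling too, where 2654, 3120 and 2281 of all 13887 tested genes were. With IL-33 + IL-17A the count was 3 with a term for the low mitochondrial set and 2 outside that set. Wls, the carrier that brings Wnt proteins to the cell surface, averaged 25.7 ± 1.32 TPM in the triple combination and 50.9 ± 0.90 in untreated cells (SD, n = 3 each; -0.96 ± 0.05, limma adjusted p = 5.3e-09). Porcn, the enzyme that adds the lipid to Wnt proteins, fell by 0.85 ± 0.10 there (limma adjusted p = 2.5e-05). Rspo3, a secreted amplifier of Wnt signalling, averaged 12.05 ± 0.44 TPM with IL-33 + IL-13 and 18.2 ± 1.06 in untreated cells (-0.55 ± 0.10, limma adjusted p = 5.4e-04). With IL-33 alone 2 of the 4 were lower, Wls and, with the limit given above, Rspo1 (8.28% of all tested genes were). These genes were singled out after their values were seen.

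Of the other secreted inhibitors, 4 were tested: Igfbp4, Sfrp4, Frzb and Notum. All 4 were higher in the triple combination, 3 with IL-33 + IL-13, 3 with IL-33 + IL-17A and 1 with IL-33, and 0 were lower in these comparisons (12.6%, 14.5%, 10.7% and 5.92% of all tested genes were higher). When IL-17A was added to IL-33, Notum rose and Sfrp4 fell (-0.62 ± 0.14, limma adjusted p = 0.012). Frzb, a frizzled-related protein, averaged 16.2 ± 1.89 TPM in the triple combination and 8.99 ± 0.39 in untreated cells (SD, n = 3 each; 0.78 ± 0.10, limma adjusted p = 6.0e-05). Sfrp4, of the same family as Sfrp1, averaged 16.4 ± 1.21 TPM with IL-33 + IL-13 and 10.4 ± 0.96 in untreated cells (0.61 ± 0.14, limma adjusted p = 0.0031). Igfbp4, a binding protein of insulin-like growth factors that also inhibits Wnt signalling, gave 0.50 ± 0.07 in the triple combination (limma adjusted p = 5.8e-05). Notum, an enzyme that removes the lipid from Wnt proteins, had 4.04, 3.83 and 4.64 TPM in the triple combination, 1.93, 1.91 and 2.11 with IL-33 + IL-13, 2.75, 4.08 and 3.96 with IL-33 + IL-17A, 1.67, 1.28 and 2.15 with IL-33, and 0.807, 1.07 and 1.87 in untreated cells. Both groups with IL-17A were above the other 9 libraries. Notum rested on few reads, 21 to 40 a library with IL-17A and 6 to 18 without it. IL-17A raised Notum by 0.77 ± 0.17 on IL-33 (limma adjusted p = 0.014) and by 0.79 ± 0.17 on IL-33 + IL-13 (adjusted p = 0.016). The first of these was not called with a term for the low mitochondrial set (0.64, limma adjusted p = 0.12), and outside that set it was 0.49 (adjusted p = 0.59). Outside the set, where 1 library of IL-33 + IL-17A remains, Notum with IL-33 + IL-17A over untreated cells also lost its call (0.76, limma adjusted p = 0.13, against 1.05 with all libraries).

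Of 14 tested Frizzled receptors and co-receptors, 11 were lower in the triple combination, 7 with IL-33 + IL-13, 8 with IL-33 + IL-17A and 5 with IL-33, where 1 was higher. These counts stand beside the shares of all tested genes given above (30.1%, 35.1%, 27% and 8.28% lower). With median-ratio scaling 8, 6, 6 and 5 of the 14 were lower, and 0, 1, 1 and 1 higher. Among all 13887 tested genes that scaling gave 2654, 3120, 2281 and 878 lower, and 2737, 3255, 2365 and 1083 higher. Fzd6 averaged 1.23 ± 0.27 TPM in the triple combination, 1.59 ± 0.12 with IL-33 + IL-13, 1.48 ± 0.27 with IL-33 + IL-17A, 2.13 ± 0.19 with IL-33 and 3.81 ± 0.21 in untreated cells (SD, n = 3 each). Fzd5, a receptor that can bind Wnt5a, averaged 21.1 ± 2.14 TPM in the triple combination, 19.5 ± 1.06 with IL-33 + IL-13, 23.5 ± 2.49 with IL-33 + IL-17A, 30.4 ± 0.66 with IL-33 and 40.5 ± 1.05 in untreated cells. Its log2 change from untreated cells with IL-33 + IL-13 was -1.02 ± 0.08 (limma adjusted p = 6.2e-07), and that of Fzd6 with the triple combination -1.11 ± 0.10 (adjusted p = 2.8e-06). Fzd1 was the receptor called higher with IL-33 (0.16 ± 0.04, limma adjusted p = 0.014). In the triple combination Fzd1 was called lower than in untreated cells (-0.10 ± 0.04, limma adjusted p = 0.046), where the median of all tested genes was -0.10. Wnt2b, a ligand close to Wnt2, fell in all 4 cytokine groups. It averaged 1.78 ± 0.35 TPM in the triple combination and 4.47 ± 0.16 in untreated cells (-0.99 ± 0.17, limma adjusted p = 4.7e-04). With IL-33 + IL-13 its fall of -0.55 (limma adjusted p = 0.016) was not called with a term for the low mitochondrial set (-0.23, adjusted p = 0.49).

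Known beta-catenin targets did not move one way. Of 11 tested, 4 were higher and 3 lower in the triple combination, 4 and 4 with IL-33 + IL-13, 4 and 4 with IL-33 + IL-17A, and 3 and 2 with IL-33. In that order, 12.6%, 14.5%, 10.7% and 5.92% of all tested genes were higher, and 30.1%, 35.1%, 27% and 8.28% lower. Ccn5 and Ccn4, secreted matricellular proteins first described as Wnt-induced, fell most with IL-13. Ccn5 had 26.3, 25.8 and 27.6 TPM in the triple combination, 40.3, 40.9 and 40.5 with IL-33 + IL-13, 99.1, 115 and 117 with IL-33 + IL-17A, 137, 141 and 135 with IL-33, and 228, 242 and 231 in untreated cells. No 2 groups overlapped, and the log2 change from untreated cells was -3.09 ± 0.05 in the triple combination (limma adjusted p = 2.6e-13) and -2.50 ± 0.05 with IL-33 + IL-13 (adjusted p = 3.5e-12). Ccn4 averaged 80.1 ± 5.53 TPM in the triple combination, 50.4 ± 1.77 with IL-33 + IL-13, 137 ± 13.96 with IL-33 + IL-17A, 127 ± 11.4 with IL-33 and 163 ± 11.4 in untreated cells (SD, n = 3 each). Added to IL-33 + IL-13, IL-17A raised Ccn4 by 0.66 ± 0.08 (limma adjusted p = 4.5e-04) and lowered Ccn5 by 0.59 ± 0.05 on the log2 scale (-0.59, adjusted p = 3.0e-05). The fall of Ccn4 with IL-33 + IL-17A from untreated cells (-0.25, limma adjusted p = 0.031) was lost with median-ratio scaling (-0.14, adjusted p = 0.10), with a term for the low mitochondrial set (-0.13, adjusted p = 0.31) and outside that set (-0.09, adjusted p = 0.65). Cd44 was higher in all 4 cytokine groups, by 0.37 ± 0.03 in the triple combination (limma adjusted p = 3.9e-07), and was singled out after its values were seen, like Fzd1.

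**Figure D4:**
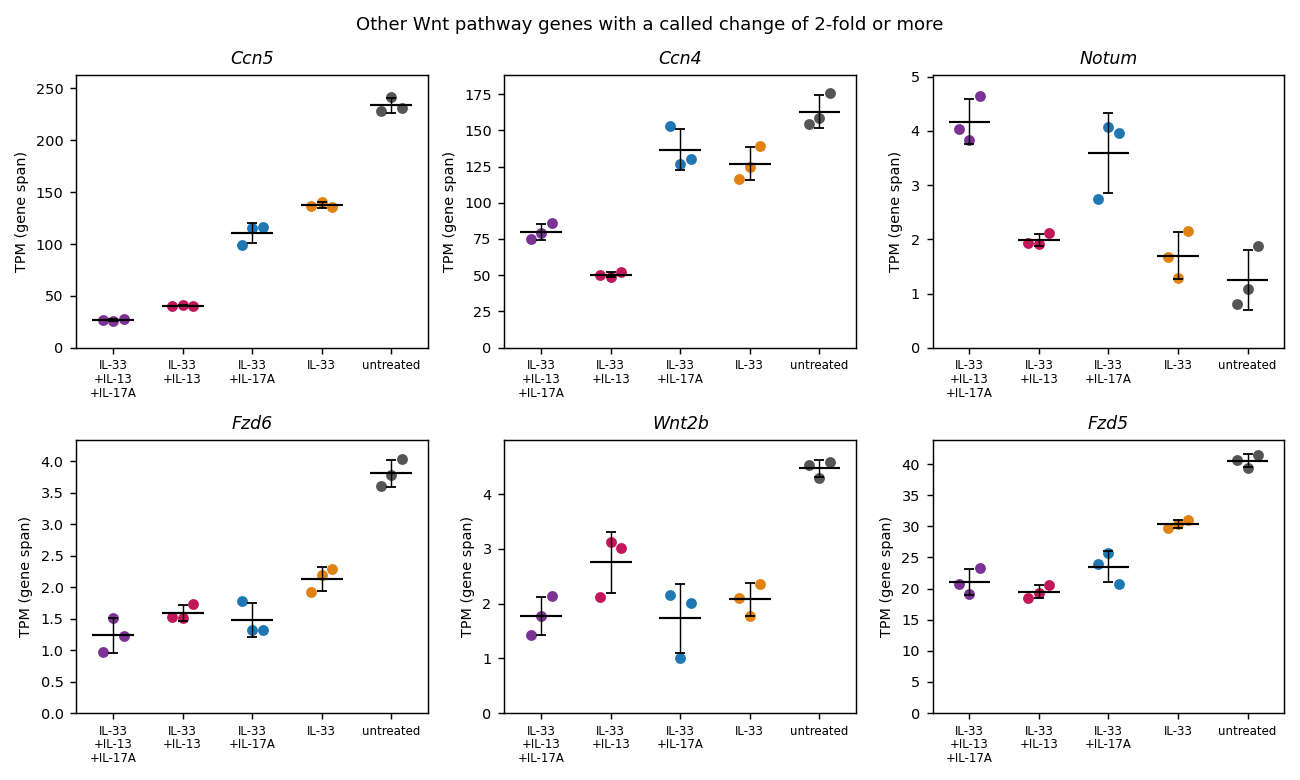
Gene-span TPM (y axis, from 0) of the 6 other Wnt pathway genes with a called log2 change of 1 or more in size, in each library (points) by group (x axis), with the mean (long bar) and SD (whisker) of 3 libraries. Ccn5 is at 25.8 to 27.6 TPM in the triple combination and 228 to 242 in untreated cells, and Notum is above its other groups wherever IL-17A was present.

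Genes with the pattern most like each member were found by Pearson's r of log2(TPM + 1) over the 15 libraries, among 13880 other tested genes. The libraries share 5 groups, so r mostly follows group means, and the values only describe. For Dkk2, Trim16 had an r of 0.994. Dkk3 was closest to Ccn5 (0.992) and Mpeg1 (0.989). Mpeg1, a gene of macrophages, averaged 1654 TPM in the triple combination, 1638 with IL-33 + IL-13, 2535 with IL-33 + IL-17A, 2581 with IL-33 and 3240 in untreated cells. Wnt5a was closest to Creg2 (0.985) and Tacc1 (0.984), and Sfrp1 to Loxl4 (0.973) and Map3k7cl (0.970). Loxl4, a lysyl oxidase relative that cross-links matrix, averaged 17.8 TPM in the triple combination, 25.0 with IL-33 + IL-13, 7.30 with IL-33 + IL-17A, 12.2 with IL-33 and 21.1 in untreated cells. The low members had weaker matches: Wnt4 with Memo1 (0.921) and Ipp (0.907), Wnt9a with Cst3 (0.901) and Arsi (0.898), and Sfrp2 with Tubgcp5 (0.738) and Zfp821 (0.730).

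Other markers moved with these results. The 7 smooth muscle and pericyte markers summed to 454 to 480 TPM in the triple combination, 809 to 836 with IL-33 + IL-13, 686 to 787 with IL-33 + IL-17A, 1455 to 1484 with IL-33 and 2132 to 2215 in untreated cells, the same order as the mean levels of Dkk2. The 5 epithelial markers summed to 6.16 to 8.43 TPM in the triple combination, 5.02 to 8.08 with IL-33 + IL-13, 2.52 to 3.04 with IL-33 + IL-17A, 1.81 to 3.14 with IL-33 and 1.61 to 3.42 in untreated cells. All 6 libraries with IL-13 were above the other 9, as for Wnt2, and Sfrp1 rose when IL-13 was added. Both tested ones, Cdh1 and Krt18 of 9 listed, were called higher with the triple combination and with IL-33 + IL-13 against untreated cells (12.6% and 14.5% of all tested genes were). They were also called higher when IL-13 was added to IL-33 (10%), with a median log2 change of 1.13, and to IL-33 + IL-17A (6.7%). Cdh1 ranged from 0.153 to 2.49 TPM and Krt18 from 0.525 to 4.96 TPM. Both ranges span the filter of 1 TPM, so these calls may not be independent of it. Epcam, a defining epithelial gene, had 0 to 0.253 TPM. The 6 mesothelial markers summed to 19.0 to 21.1 TPM in the triple combination, 22.1 to 23.1 with IL-33 + IL-13, 13.9 to 17.3 with IL-33 + IL-17A, 18.7 to 20.8 with IL-33 and 31.7 to 36.3 in untreated cells. Of the 5 tested, Lrrn4 and Upk1b rose when IL-13 was added to IL-33 (10% of all tested genes were higher). Wt1, Lrrn4 and Upk1b rose when it was added to IL-33 + IL-17A (6.7%). Against untreated cells 0 of the 5 were higher in any cytokine group. In the order of the sums, 3, 2, 3 and 3 were lower, where 30.1%, 35.1%, 27% and 8.28% of all tested genes were. The list was lowest with IL-33 + IL-17A, as were the mean TPM of Wnt4 and Axin2. For both genes that range overlapped the IL-33 range, and IL-17A added to IL-33 was not called (limma adjusted p = 0.91 for Wnt4, limma voom adjusted p = 0.49 for Axin2). The 5 endothelial markers in the files summed to 5.31 to 7.69 TPM over all libraries. Their part in the results was not tested.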

How the data were processed

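RNA of 15 libraries in 5 groups of 3 was analysed; replicates were numbered in accession order and are not paired. The deposited values are TPM made by the authors; alignment with HISAT2 (version not given in the sources used here) to mm10 is named in the submitters' processing notes, and RNeasy mini plus RNA and NovaSeq6000 sequencing in the labels' protocols. How the authors computed TPM, with which strand setting and which rule for multiply matching reads, is not stated in the labels. From the values, TPM was found to be scaled by gene span: 88.4% to 90.0% of low values (up to 20 reads) of single-transcript genes, 2062 to 2205 per library, were whole reads within 0.03, with 1 read on 1 kb of span worth 0.730 to 1.13 TPM. Reads include any that fell in introns. Of 18078 gene identifiers, 18062 were found in GENCODE vM21.

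limma 3.58.1 (R 4.3.3), with trend and robust options, was fitted to log2(TPM + 1) of all 15 libraries for 9 comparisons; 4191 genes under the filter were left out. The added voom fit on recovered reads tested 13728 genes. On simulated IL-33 against untreated data, limma recovered 94 of 100 genes changed by a log2 of 1 and 98 of 100 changed by 2, with 8 false calls among 13754 genes tested, and voom 100 and 100 with 6 among 13586. The simulation gave all genes the same relative spread beyond counting error. It changed only genes with more reads than Wnt2, Wnt4, Sfrp2 or Axin2 had in untreated cells, so recovery at their depth was not measured. Python 3.11.15, pandas 2.3.3, numpy 2.4.6 and matplotlib 3.10.9 were used. Other pathway genes were named when called with a log2 change of at least 1 in size, and for each tested member the 2 genes of highest r, of which 1 is not reported here; exceptions are stated. The members and lists were chosen with earlier results of these data known. Alternatives were another pseudocount and filters, median-ratio scaling, plain limma, the mitochondrial term or set, the compared groups only, and each library left out. Of 9 members, 6 matched a RefSeq promoter.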

Additional observations from a re-analysis of the deposited data

How the results depend on the processing

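No paired analysis was possible because the labels carry no replicate numbers shared by the groups. Of 1142 log2 changes of members under an alternative, 1096 stayed on their side of the threshold, 24 lost a call and 22 gained one. No called value changed sign; 59 values that were called in neither setting did, none larger in size than 0.34 as reported or 0.37 under the alternative. The number of members called moved by over 1.5 times in these cases. With a filter of 5 TPM, under which fewer members are tested, it was 2 for the triple combination, 3 for IL-33 + IL-13, 2 for IL-33 + IL-17A and 2 for IL-33, all against untreated cells, and 1 for IL-17A added to IL-33. Outside the low mitochondrial set it was 1 for IL-17A added to IL-33, where 1 library of IL-33 + IL-17A remains and is assumed to vary like the other groups. For IL-17A added to IL-33 + IL-13, reported as 1, it was 2 with the mitochondrial term, 2 on recovered reads, 2 on recovered reads with that term, 0 with only the compared groups, and 0 to 0 when a library was left out. For the interaction, reported as 0, it was 0 to 2 when a library was left out. Over all genes, the interaction called 47 on TPM and 1429 on recovered reads, and IL-17A added to IL-33 + IL-13 called 1034 and 1740; the cause was not tested. Comparisons with IL-33 + IL-13 could not be fitted outside the low mitochondrial set, which holds all of its libraries. Depth limits Wnt2, Sfrp2 and Axin2, at 1 to 27 reads a library.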
